A study of Mus musculus with 4 samples.

Results

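Chemokine ligands are small secreted or membrane-bound proteins that steer the movement of leukocytes. The chemokine genes described here are those whose name in the array files is Ccl or Cxcl followed by a number, with or without a final letter, or Cx3cl1. The rule found 34 of the 30107 genes on the array, read by 46 probes, and 26 of the 34 had a single probe. The study hybridised RNA of 4 samples to 1-colour Agilent expression arrays, 1 array each, without replicates. They were an o-organoid and a y-organoid sample (both crypt-villus organoids, epithelial structures grown in culture from crypts), isolated crypt, the epithelial pit that holds the stem cells, and whole intestine. All came from wild type mice of strain C57/BL6. What o and y stand for, the age of the mice, the culture conditions and the number of animals per sample are not given in the sources used here.

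Each chemokine binds receptors that couple to G proteins, and a cell follows the rising concentration of a ligand whose receptor it carries. Some ligands are made steadily by a tissue and place resident lymphocytes and macrophages there, while others are switched on by cytokines through NF-kappaB or interferon signalling. In the small intestine the epithelium is known for Ccl25, which draws T cells and antibody-secreting cells to the gut wall, and the connective tissue beneath it is known for ligands that hold lymphocytes, monocytes and eosinophils.

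Each signal is a log2 processed intensity from which the array's own 75th percentile was subtracted, so 0 means that a probe was as bright as that percentile. A probe that the scanner software did not flag as well above background has only an upper bound and is called dim. Against a dim side a fold change is written as at least N-fold: the dim side was raised to the array's lowest signal that was well above background, or kept its own signal where that was higher (-5.01 on the o-organoid, -4.47 on the y-organoid, -4.53 on the crypt and -4.48 on the intestine array). Where a gene had several probes, the brightest on average stands for it. A difference subtracts the array named second from the array named before it and describes those arrays, with no test or p-value. Probes spotted repeatedly on an array had a median SD of 0.049 on the o-organoid, 0.066 on the y-organoid, 0.076 on the crypt and 0.061 on the intestine array, or 0.133 to 0.189 among signals below -2. That SD leaves out labelling and hybridisation. The labelling reaction took 40 ng of o-organoid RNA and 20 ng of each other RNA. Epithelial markers such as Epcam, Cdh1 and Vil1 were above background on all arrays (7 of 7), whereas all 6 fibroblast markers were dim on the organoid and crypt arrays. The 7 epithelial signals, as multiples of the 75th percentile, summed to 279 on the o-organoid, 269 on the y-organoid, 652 on the crypt and 698 on the intestine array. Relative to crypt, Krt20 and Vil1 were at least 2-fold lower for o-organoid, and Epcam, Krt20 and Vil1 for y-organoid, with 0 of 7 higher for either. Signals for bulk RNA cannot tell fewer cells of a type from less RNA per cell.

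The sequences that bear on the results are of 2 kinds. The start regions of 5 genes, 250 bases before to 50 after the annotated start, are given 5′ to 3′ on the gene's strand, credited to RefSeq on build GRCm38.p6. Ccl6 and Ccl9 are shown because they lie side by side and both had their lowest signal on the y-organoid array (for o-organoid they differed), and capitals mark stretches of 10 or more bases that the pair has in common. Cxcl1 and Cxcl2 are shown for the NF-kappaB motif in 2 ligands that stayed dim, and Cxcl10 for the interferon motif, with capitals marking every match to the motifs described further on.
Ccl6 promoter, chr11:83593038-83593337, minus strand: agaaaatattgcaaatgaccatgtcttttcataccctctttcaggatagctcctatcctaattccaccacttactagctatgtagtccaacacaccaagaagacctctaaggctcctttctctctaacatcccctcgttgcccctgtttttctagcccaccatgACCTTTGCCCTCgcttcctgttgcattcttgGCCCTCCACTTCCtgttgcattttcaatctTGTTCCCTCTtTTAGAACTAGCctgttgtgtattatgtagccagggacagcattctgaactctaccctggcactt
Ccl9 promoter, chr11:83578587-83578886, minus strand: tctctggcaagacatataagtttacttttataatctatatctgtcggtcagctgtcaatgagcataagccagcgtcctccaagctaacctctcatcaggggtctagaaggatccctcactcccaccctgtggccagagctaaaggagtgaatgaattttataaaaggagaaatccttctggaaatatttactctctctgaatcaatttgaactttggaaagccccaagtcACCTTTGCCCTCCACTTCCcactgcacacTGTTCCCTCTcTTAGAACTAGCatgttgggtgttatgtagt
Cxcl1 promoter, chr5:90890995-90891294, plus strand: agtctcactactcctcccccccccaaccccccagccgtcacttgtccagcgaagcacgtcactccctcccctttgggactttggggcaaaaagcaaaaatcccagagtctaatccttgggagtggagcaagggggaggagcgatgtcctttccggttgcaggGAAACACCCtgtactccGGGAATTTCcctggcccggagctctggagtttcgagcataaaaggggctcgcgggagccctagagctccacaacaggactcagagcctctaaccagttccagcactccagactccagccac
Cxcl2 promoter, chr5:90903649-90903948, plus strand: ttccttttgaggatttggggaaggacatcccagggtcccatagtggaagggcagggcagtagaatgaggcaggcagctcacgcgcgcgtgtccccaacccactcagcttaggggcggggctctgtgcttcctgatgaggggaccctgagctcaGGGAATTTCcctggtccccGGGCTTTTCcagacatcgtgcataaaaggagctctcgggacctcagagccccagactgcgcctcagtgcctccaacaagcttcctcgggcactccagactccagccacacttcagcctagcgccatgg
Cxcl10 promoter, chr5:92348840-92349139, minus strand: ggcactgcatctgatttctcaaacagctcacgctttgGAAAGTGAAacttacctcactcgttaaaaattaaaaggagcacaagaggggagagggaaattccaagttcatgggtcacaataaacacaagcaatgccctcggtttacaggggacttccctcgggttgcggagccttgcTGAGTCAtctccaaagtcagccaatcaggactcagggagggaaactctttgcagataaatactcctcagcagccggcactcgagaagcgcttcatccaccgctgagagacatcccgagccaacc

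The probes of Ccl25 and Cxcl11 are shown because their values depended on which probe was read. The first 30 of 60 bases are given, on build mm9 as the files have it, except for the brightest Cxcl11 probe. For that probe bases 5 to 34 are given, and capitals mark 20 bases that it has in common with probes of other genes. No exon or UTR annotation of mm9 was used here.
Ccl25 probe A_51_P161265, chr8:4359916-4359975, plus strand: gaggaacgagaggatagtgagtgtgtgaga
Ccl25 probe A_66_P104618, chr8:4348678-4348737, plus strand: aaacttgatgaccttactttgattccaagc
Ccl25 probe A_55_P2027852, chr8:4327833-4327892, plus strand: aggcagaaggaaaatcaagtgggttccatc
Ccl25 probe A_55_P1965979, chr8:4357861-4357920, plus strand: gatctactatcagcaaacagaaagtgtctt
Cxcl11 probe A_55_P2160387, chr5:92788567-92788626, minus strand: caggagtttcAGGACAGCCAGGGCTACACA
Cxcl11 probe A_55_P2044413, chr5:92788640-92788699, minus strand: tatacaccttaatttcagcacttgaaaggc

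Most chemokine genes were detected in whole intestine and few in epithelium. Well above background were 10 of 34 for o-organoid (29.4%), 9 for y-organoid (26.5%), 11 for crypt (32.4%) and 24 for intestine (70.6%). Among all 30107 genes the shares were 54.8% on the o-organoid, 54.3% on the y-organoid, 52.2% on the crypt and 58.8% on the intestine array. Thus the chemokine genes lay below the share of all genes on the 3 epithelial arrays and above it on the intestine array. Above background on all 4 arrays were 8 genes (Ccl25, Ccl27a, Ccl28, Ccl6, Ccl9, Cx3cl1, Cxcl11 and Cxcl16), where 48% of all genes had that pattern. On the intestine array alone 12 were above background (Ccl2, Ccl3, Ccl4, Ccl8, Ccl11, Ccl12, Ccl17, Cxcl5, Cxcl9, Cxcl12, Cxcl13 and Cxcl14), against 5.39% of all genes. Ccl5 and Cxcl10 were above background on the crypt and intestine arrays only, a pattern of 1.07% of all genes. Ccl24 was dim on the y-organoid array alone and Ccl19 on the crypt array alone. The 10 genes dim on every array (Ccl1, Ccl7, Ccl20, Ccl22, Ccl26, Cxcl1, Cxcl2, Cxcl3, Cxcl15 and Cxcl17) compare with 35.5% of all genes.

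**Figure D1:**
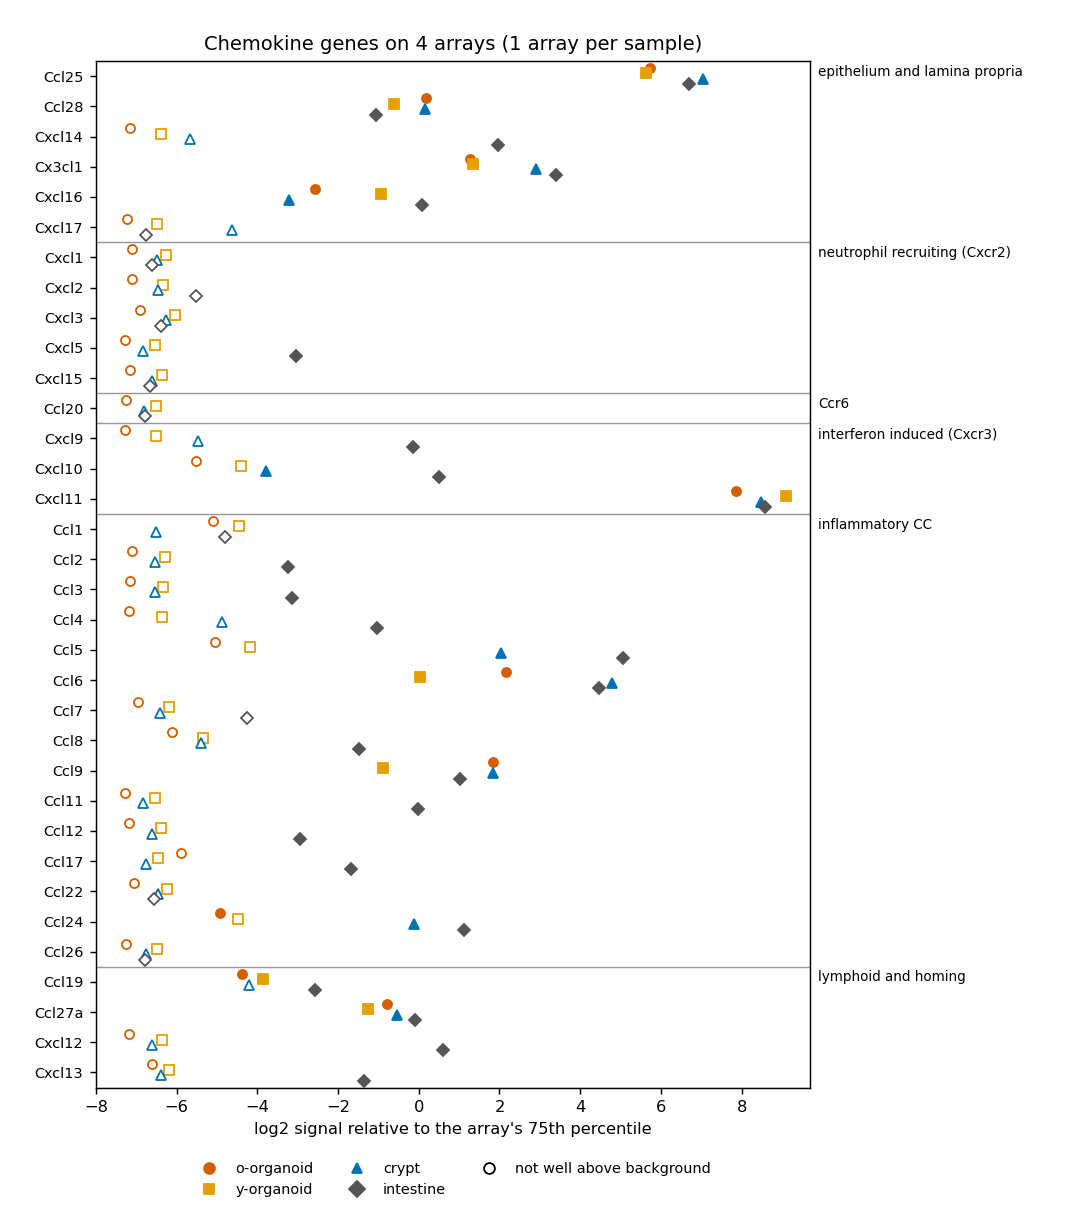
Log2 signal of each of the 34 chemokine genes (rows, grouped by role) on the o-organoid, y-organoid, crypt and intestine arrays, 1 point per array, on a log2 axis relative to the array's 75th percentile. Open points were not well above background; 24 genes have a filled point for intestine, and 10, 9 and 11 have a filled point for o-organoid, y-organoid and crypt.

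Of the 6 ligands known for epithelium and the tissue just beneath it, 4 were above background on each epithelial array: Ccl25, Ccl28, Cx3cl1 and Cxcl16. That count lay near the share of all genes, which was 54.8% on the o-organoid, 54.3% on the y-organoid and 52.2% on the crypt array. Ccl25, the ligand of Ccr9 and a homing signal for gut lymphocytes, had signals of 5.72 on the o-organoid, 5.64 on the y-organoid, 7.04 on the crypt and 6.70 on the intestine array. It was above background everywhere, with both organoid arrays below both tissue arrays: the difference was -1.31 for o-organoid minus crypt (2.48-fold lower) and -1.40 for y-organoid minus crypt (2.64-fold lower). Its other 3 probes, which lie upstream of the brightest along chromosome 8, did not follow that order. Probe A_66_P104618 of Ccl25 had -0.70 on the o-organoid, -0.34 on the y-organoid, -1.19 on the crypt and -2.01 on the intestine array, and A_55_P2027852 had -3.88, -1.38, -3.59 and -4.35 on the same arrays. The fourth, A_55_P1965979, was dim on the o-organoid and intestine arrays and had -3.73 on the y-organoid and -4.11 on the crypt array. For y-organoid minus crypt these 3 Ccl25 probes gave 0.84, 2.21 and 0.38, so each had the opposite sign to the brightest. Averaging all 4 Ccl25 probes turned the y-organoid difference to 0.51 and brought o-organoid minus crypt to -0.46. The array annotation assigned each of the 4 Ccl25 probes to a different transcript record, and only the brightest to a RefSeq messenger RNA. Which transcripts the probes in fact read was not tested.

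**Figure D2:**
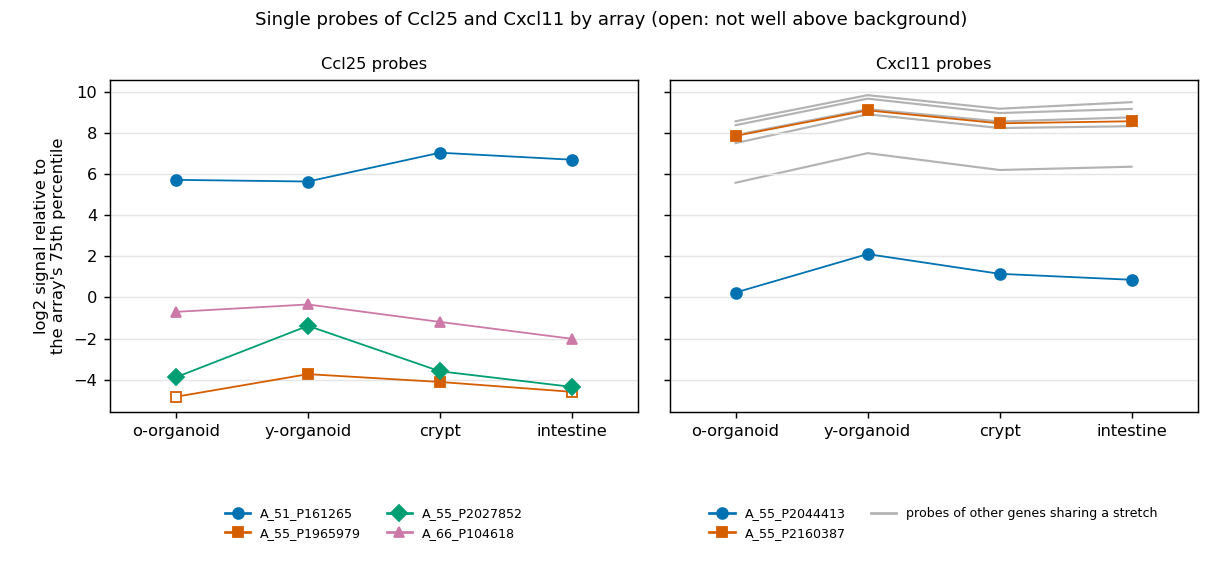
Log2 signal, relative to the array's 75th percentile, of the 4 Ccl25 probes (left panel) and the 2 Cxcl11 probes (right panel) on each array, with grey lines for 5 probes of other genes that have a 20-base stretch in common with Cxcl11 probe A_55_P2160387. The brightest Ccl25 probe was lower on both organoid arrays than in crypt, whereas the other Ccl25 probes were higher for y-organoid than for crypt, and the grey lines run parallel to the brightest Cxcl11 probe.

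Ccl28, which attracts IgA-producing cells through Ccr10, had signals of 0.19 on the o-organoid, -0.61 on the y-organoid, 0.15 on the crypt and -1.06 on the intestine array. It was the only chemokine gene at least 2-fold higher on the crypt array than on the intestine array (1.21, 2.31-fold). With normexp background correction that difference was 0.94, under 2-fold, and with the deposited scaling Ccl25 (1.08), Ccl6 (1.07) and Ccl9 (1.57) passed 2-fold as well. Organoid and crypt lay closer together, at 0.03 for o-organoid minus crypt and -0.76 for y-organoid minus crypt. Its probe is placed on an unlocalised part of chromosome 13 in mm9.

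Cx3cl1 and Cxcl16 are made as membrane-bound proteins that adhere to leukocytes and can be shed by Adam10 and Adam17. Cx3cl1, the ligand of Cx3cr1 on gut macrophages, had signals of 1.26 on the o-organoid, 1.35 on the y-organoid, 2.91 on the crypt and 3.39 on the intestine array. Both organoid arrays were lower than crypt, by 3.15-fold for o-organoid (-1.66) and 2.96-fold for y-organoid (-1.57), and they differed from each other by -0.09. Cxcl16, the ligand of Cxcr6, had -2.58 on the o-organoid, -0.94 on the y-organoid, -3.22 on the crypt and 0.09 on the intestine array. It was 9.89-fold lower in crypt than in intestine (-3.31), and 4.86-fold higher on the y-organoid array than on the crypt array (2.28). Cxcl16 was the only chemokine gene at least 2-fold higher on an organoid array than in crypt. The o-organoid array had 3.12-fold less Cxcl16 signal than the y-organoid array (-1.64).

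Cxcl14, a ligand made steadily in several epithelia and in stroma, was bright in intestine at 1.97 and dim elsewhere, with -7.16 on the o-organoid, -6.38 on the y-organoid and -5.66 on the crypt array. It was at least 90.6-fold lower in crypt than in intestine, the largest fold bound among the chemokine genes in that comparison. Cxcl17, a mucosal ligand, was dim on every array.

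Ccl6 and Ccl9, related CC ligands that attract monocytes and macrophages in rodents through Ccr1, were well above background on every epithelial array. Ccl6 had signals of 2.15 on the o-organoid, 0.03 on the y-organoid, 4.78 on the crypt and 4.47 on the intestine array. Ccl9 had signals of 1.85 on the o-organoid, -0.88 on the y-organoid, 1.85 on the crypt and 1.03 on the intestine array. The y-organoid array had the lowest value of both genes. Relative to crypt, Ccl6 was 6.22-fold lower for o-organoid (-2.64) and 26.9-fold lower for y-organoid (-4.75). Ccl9 was level for o-organoid (0.00) and 6.63-fold lower for y-organoid (-2.73). These were also the only 2 chemokine genes at least 2-fold higher on the o-organoid array than on the y-organoid array, by 6.62-fold for Ccl9 (2.73) and 4.33-fold for Ccl6 (2.11), to which the deposited scaling added Ccl28 (1.44) and Ccl27a (1.10). In crypt against intestine, Ccl9 differed by 0.82 and Ccl6 by 0.32. Their probes lie 13.7 kb apart on chromosome 11 in mm9. Ccr1, their receptor, was dim on all 4 arrays. Macrophage and dendritic cell markers were lower on the epithelial arrays: summed over 7 genes as multiples of the 75th percentile, they came to 1.23 on the o-organoid, 1.42 on the y-organoid, 1.45 on the crypt and 31.9 on the intestine array. Of the 7, 5 were above background on the o-organoid, 3 on the y-organoid, 5 on the crypt and 7 on the intestine array. Csf1r, Cd68 and C1qb were above background on all 4, and Itgax and C1qa were dim on the 3 epithelial arrays. The macrophage lysozyme gene Lyz2 had -3.50 on the o-organoid, -6.09 on the y-organoid (dim), -1.42 on the crypt and -0.33 on the intestine array. Its value was lowest on the y-organoid array like those of Ccl6 and Ccl9, but the markers above background on all 4 arrays differed. Cd68 (-2.39 on o-organoid, -2.17 on y-organoid) and C1qb (-3.75 and -3.15) were lowest on the o-organoid array. Csf1r was lowest in crypt (-0.80, against -0.30 on o-organoid and -0.05 on y-organoid). The part of these cells in the Ccl6 and Ccl9 signals was not tested.

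The printed promoters of Ccl6 and Ccl9 have 10 stretches of 10 bases in common, which join to 4 runs in Ccl6 (the longest 13 bases) and 3 in Ccl9 (the longest 19 bases) around and just before the start. Of the 32850 other promoters in the table, 8.77% have at least 1 such stretch in common with Ccl6, and 1 promoter of another gene has at least as many as Ccl9. Ccl9 also holds a match to the NF-kappaB letters and another to the AP-1 letters given further on, and Ccl6 holds neither in this window.

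The ligands that recruit neutrophils through Cxcr2 were almost all dim. Cxcl1, Cxcl2, Cxcl3 and Cxcl15 were dim on all arrays, and Cxcl5 was above background on the intestine array alone. Cxcl5 had -7.27 on the o-organoid, -6.53 on the y-organoid and -6.83 on the crypt array, all dim, and -3.03 on the intestine array. It was at least 2.83-fold lower in crypt than in intestine, a bound that fell under 2-fold with normexp, with quantile normalization and with the deposited scaling. Cxcr2 was dim on every array too. Ccl20, which epithelium over lymphoid follicles makes to attract cells with Ccr6, was dim on every array. Ccr6 itself was above background on the intestine array only (-1.04).

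Short motifs were searched on both strands of the promoters. The NF-kappaB letters GGGNNTTTC occurred in 4.36% of the 32851 promoters in the table and in those of 6 of the 23 chemokine genes with an entry: Cxcl1, Cxcl2, Cxcl3, Ccl20, Ccl9 and Cxcl9. Of these 6 genes, Ccl9 was above background on every array, Cxcl9 in intestine and the other 4 nowhere. In Cxcl1 the matches start at -88 and -71 from the annotated start, in Cxcl2 at -97 and -78, in Cxcl3 at -73, in Ccl20 at -79 and in Ccl9 at -34. The interferon letters GAAANNGAA occurred in 8.56% of promoters and in those of 6 chemokine genes: Ccl1, Ccl3, Ccl19, Cxcl9, Cxcl10 and Cxcl14. The match of Cxcl10 starts at -213. The STAT letters TTCNNNGAA occurred in 8.3% of promoters and in those of Ccl17 and Cxcl14, and the AP-1 letters TGANTCA in 7.81% and in those of Ccl27a, Ccl28, Ccl9, Cxcl9 and Cxcl10. No motif overlapped another in the promoters printed here. A match describes letters and shows no bound factor.

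Cxcl9, Cxcl10 and Cxcl11 are induced by interferon and attract activated T cells through Cxcr3. Cxcl9 was above background in intestine alone, at -0.15, with -7.27 on the o-organoid, -6.50 on the y-organoid and -5.47 on the crypt array. Its fold was at least 20.9 lower in crypt than in intestine, and a second Cxcl9 probe gave at least 8.59-fold. Cxcl10 was dim on the o-organoid (-5.51) and y-organoid (-4.41) arrays and had -3.78 on the crypt and 0.49 on the intestine array. It was 19.3-fold lower in crypt than in intestine (-4.27). For o-organoid it lay below crypt by at least 2.35-fold, a bound that fell under 2-fold with normexp and over the mean of both probes. Its other probe was dim on all arrays.

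Cxcl11 was read by 2 probes. Probe A_55_P2160387 of Cxcl11 had 7.86 on the o-organoid, 9.10 on the y-organoid, 8.47 on the crypt and 8.57 on the intestine array. Its value was highest on the y-organoid array and lowest on the o-organoid array after scaling. Before scaling its intensities were close, at 149797 on the o-organoid, 154414 on the y-organoid, 167492 on the crypt and 147102 on the intestine array. Its stretch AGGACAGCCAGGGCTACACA occurs in 4 probes of other genes, and 5 probes (for Elk1, Med16, Gm10856, Ndor1 and Glrx2) have at least 20 bases in a row in common with it. All 5 were above background on every array. For o-organoid minus y-organoid the 5 gave -1.29, -1.26, -1.44, -1.39 and -1.27, and the Cxcl11 probe gave -1.24. For y-organoid minus crypt they gave 0.61 to 0.82, against 0.63 for Cxcl11, and for crypt minus intestine -0.32 to -0.09, against -0.10. The Cxcl11 probe thus differed between arrays much as the probes that resemble it did. The second Cxcl11 probe, A_55_P2044413, had no such stretch in common with any probe and had 0.24 on the o-organoid, 2.11 on the y-organoid, 1.15 on the crypt and 0.86 on the intestine array. It differed by -1.87 for o-organoid minus y-organoid and by 0.95 for y-organoid minus crypt. RefSeq lists Cxcl11 as a transcribed pseudogene in this assembly. What either probe read was not tested, and the values of Cxcl11 are uncertain.

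Of the genes that respond to interferon, 14 were listed, and most of those tested were lower on the organoid arrays than in crypt. Relative to crypt, 11 of 13 tested were at least 2-fold lower and 0 higher for o-organoid (median -3.52), where 13.5% of all genes were lower and the median of all genes was 0.00. For y-organoid 7 of 12 were lower and 0 higher (median -1.84), where 13.5% of all genes were lower and the median of all genes was 0.16. The gene for the transcription factor Irf1, which drives such genes, had 0.00 on the o-organoid, -0.36 on the y-organoid, 4.37 on the crypt and 4.45 on the intestine array. Psmb8, an immunoproteasome subunit, differed by -7.81 for o-organoid minus crypt and -5.12 for y-organoid minus crypt. Isg15, a ubiquitin-like protein, differed by -5.50 and -2.01 in the same comparisons. In crypt against intestine 8 of 14 were lower and 0 higher (median -1.15), against 14.4% lower and a median of 0.06 over all genes. Cxcr3, the receptor of these ligands, was dim on the o-organoid array and had -3.40 on the y-organoid, -3.99 on the crypt and -1.36 on the intestine array.

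The inflammatory CC ligands divided into those seen in intestine alone and a few seen in crypt. Of the 15 genes, 3 were above background on the o-organoid, 2 on the y-organoid, 4 on the crypt and 11 on the intestine array. Among all genes these shares were 54.8% on the o-organoid, 54.3% on the y-organoid, 52.2% on the crypt and 58.8% on the intestine array. Ccl5, which attracts T cells and is made by activated T cells and natural killer cells, was dim on both organoid arrays (-5.05 on o-organoid and -4.17 on y-organoid) and had 2.05 on the crypt and 5.06 on the intestine array. Relative to crypt it was lower by at least 133-fold for o-organoid and at least 74.5-fold for y-organoid. These bounds rest on different dim levels and do not order the organoid arrays. In crypt Ccl5 was 8.09-fold lower than in intestine (-3.02). The T cell markers Cd3g, Cd3d and Cd8a had the pattern of Ccl5, dim on both organoid arrays and above background in crypt and intestine. All 7 T cell markers summed to 1.58 on the o-organoid, 3.66 on the y-organoid, 6.91 on the crypt and 16.0 on the intestine array, as multiples of the 75th percentile. Cd2 was dim on both organoid arrays and on the crypt array, while Cd3e, Lck and Cd4 were above background on all arrays, so that 3 of 7 were so on the o-organoid, 3 on the y-organoid, 6 on the crypt and 7 on the intestine array. Lck differed by 0.24 for y-organoid minus crypt. Their part in the Ccl5 signal was not tested.

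Ccl24 attracts eosinophils through Ccr3. Its signals were -4.92 on the o-organoid, -4.49 on the y-organoid (dim), -0.13 on the crypt and 1.11 on the intestine array. The o-organoid value lay just above that array's lowest signal above background. Relative to crypt, Ccl24 was 27.7-fold lower for o-organoid (-4.79) and lower by at least 20.3-fold for y-organoid. Between crypt and intestine it was 2.37-fold lower (-1.24), and -0.49 with the deposited scaling. Ccl11, the other main ligand of Ccr3 in gut, was bright in intestine alone at -0.02, with -7.28 on the o-organoid, -6.53 on the y-organoid and -6.83 on the crypt array. It was at least 22.8-fold lower in crypt than in intestine. Ccl26, the third member of this group, was dim everywhere, and Ccr3 was above background in intestine only (-2.24).

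The ligands of monocytes and macrophages, Ccl2, Ccl7, Ccl8 and Ccl12, act mainly through Ccr2 or, for mouse Ccl8, Ccr8. Ccl2 was spotted 10 times on each array and had -7.10 ± 0.15 on the o-organoid (10 spots), -6.28 ± 0.25 on the y-organoid (9 spots), -6.53 ± 0.20 on the crypt (9 spots) and -3.24 ± 0.14 on the intestine array (10 spots), SD over spots of an array. Only the intestine value was above background, at least 2.45-fold over crypt. Ccl12 had -2.94 in intestine and Ccl8 -1.48, both dim on the other arrays (between -7.19 and -5.35), and crypt was at least 3.01-fold lower for Ccl12 and 8.29-fold lower for Ccl8. Ccl7 was dim on every array, with -4.26 in intestine. Ccr2 was dim on all arrays.

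Ccl3 and Ccl4 attract macrophages and T cells, and Ccl17 and Ccl22 bind Ccr4. Ccl4 had -7.19 on the o-organoid, -6.36 on the y-organoid and -4.88 on the crypt array, all dim, and -1.03 on the intestine array, at least 11.3-fold lower in crypt. Ccl3 was above background in intestine alone (-3.13), with crypt at least 2.65-fold lower. Ccl17 had -5.89 on the o-organoid, -6.46 on the y-organoid and -6.77 on the crypt array, all dim, and -1.69 in intestine, at least 7.16-fold lower in crypt. Ccl22 and Ccl1 were dim on all arrays. The bounds of Ccl2, Ccl3 and Ccl12 fell under 2-fold with normexp, with quantile normalization and with the deposited scaling.

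The ligands that organise lymphoid tissue and homing were mostly seen in intestine. Cxcl12, the ligand of Cxcr4 made by stromal cells, had -7.18 on the o-organoid, -6.37 on the y-organoid and -6.61 on the crypt array, all dim, and 0.60 on the intestine array. It was at least 35.2-fold lower in crypt than in intestine by this probe and at least 9.77-fold lower by its other probe. Cxcl13, which draws B cells into follicles through Cxcr5, had -1.36 in intestine and was dim elsewhere, at least 9.05-fold lower in crypt. Fibroblast and smooth muscle markers were also higher in intestine. Summed over 6 genes, fibroblast markers came to 0.0821 on the o-organoid, 0.151 on the y-organoid, 0.132 on the crypt and 50.4 on the intestine array. The 5 smooth muscle markers came to 0.319, 0.53, 0.504 and 70.7 on those arrays. Of 6 B and plasma cell markers, 3 were above background on each epithelial array and 6 in intestine. Ms4a1 and Jchain were dim on the 3 epithelial arrays, while Cd79a, Cd79b and Sdc1 were above background on all arrays, and Sdc1, which epithelium also makes, differed by 0.50 for crypt minus intestine. Mast cell markers were dim on the epithelial arrays, and 3 of 4 were above background in intestine. Of the neutrophil markers, S100a8 and S100a9 were dim except in intestine, while Ly6g and Csf3r were above background on all arrays. The 4 together summed to 32.4 on the o-organoid, 81.2 on the y-organoid, 54.7 on the crypt and 63.0 on the intestine array. Nearly all of that sum was Csf3r, with signals of 5.01, 6.34, 5.77 and 5.96 on those arrays, where Ly6g had -3.71, -3.33, -3.24 and -2.36. The sum therefore does not rank the arrays by neutrophil markers as a set. Endothelial markers were above background for 3 of 5 genes on each epithelial array and for 5 in intestine. How far these cells account for the intestine signals was not tested.

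Ccl19, the ligand of Ccr7, stayed close to background. Its brightest probe had -4.37 on the o-organoid, -3.87 on the y-organoid, -4.20 on the crypt (dim) and -2.58 on the intestine array. Crypt was at least 3.07-fold lower than intestine by that probe, at least 4.89-fold by another and 1.76-fold by the third, which was above background on every array. Ccl27a, a ligand of Ccr10 best known from skin, had -0.79 on the o-organoid, -1.25 on the y-organoid, -0.55 on the crypt and -0.10 on the intestine array. All its differences lay within 2-fold. Of its 3 probes 2 overlap in sequence, and the third gave 0.23 for y-organoid minus crypt, where the brightest gave -0.70.

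Crypt was set against intestine for all chemokine genes. Of the 24 chemokine genes that crypt, intestine or both showed above background, 1 was at least 2-fold higher in crypt, 17 were lower (13 of them by bound) and 6 lay within 2-fold. Among all 18201 genes tested, 6.69% were higher and 14.4% lower. The 13 genes with a bound entered only because intestine showed them above background, so their direction was fixed, and the count of 17 and the median over all 24 (-1.60, against 0.06 for all genes tested) lend no support. The 11 genes measured on both arrays had a median of -0.45, against 0.14 for all genes so measured. The deposited scaling gave 4 chemokine genes higher and 11 lower, where 6822 of all genes were higher and 1545 lower, and it moved the median of all genes by 0.75.

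In y-organoid against crypt, 1 of 12 tested chemokine genes was at least 2-fold higher (Cxcl16) and 6 were lower (Ccl5, Ccl6, Ccl24, Ccl9, Cx3cl1 and Ccl25), where 18.5% of all 17195 genes were higher and 13.5% lower. Of the 6 lower, 2 (Ccl5 and Ccl24) were bounds that could only be lower. The median of the 12 was -1.08, against 0.16 for all genes. The 8 measured on both arrays also had a median of -1.08, against 0.11 for all genes so measured. The deposited scaling gave 9 lower, adding Ccl27a (-1.22), Ccl28 (-1.28) and Cxcl10 (-1.15), and with it 1573 of all genes were higher and 4573 lower. In o-organoid against crypt, 0 of 12 were higher and 6 lower (Ccl5, Ccl24, Ccl6, Cx3cl1, Ccl25 and Cxcl10), against 8.57% and 13.5% of all 17198 genes. Of these 6, 2 (Ccl5 and Cxcl10) were bounds that could only be lower. The median of the 12 was -0.92, against 0.00 for all genes. The 9 measured on both arrays had a median of -0.61, against -0.02 for all genes so measured. Both organoid comparisons use the same crypt array, so their values are not independent. In o-organoid against y-organoid, 2 of 10 were higher (Ccl9 and Ccl6) and 2 lower (Cxcl16 and Cxcl11), against 8.25% and 19.3% of all 17293 genes. The deposited scaling gave 4 higher and 1 lower there, with 4418 of all genes higher and 1104 lower, and quantile normalization 2 and 1. The median of these 10 was 0.04, against -0.15 for all genes.

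**Figure D3:**
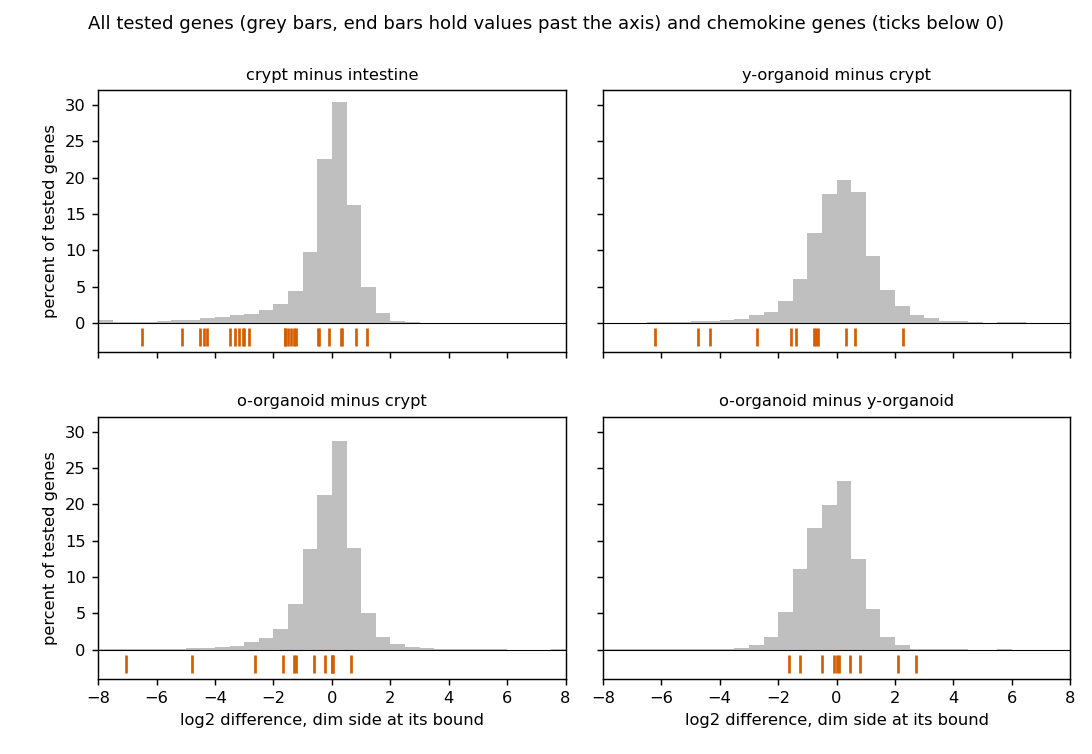
Distribution of log2 differences over all tested genes (grey bars, percent of genes per bin; the end bars hold values past the axis) with the chemokine genes as ticks below the axis, for the 4 comparisons. In crypt minus intestine the chemokine ticks have a median of -1.60 against 0.06, with 13 of 24 at bounds that could only be lower (the 11 measured on both arrays have -0.45 against 0.14), and they spread around 0 in o-organoid minus y-organoid (median 0.04).

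Neighbouring chemokine genes did not all share a pattern. In mm9 Ccl2, Ccl7, Ccl11, Ccl12, Ccl8 and Ccl1 lie in that order on chromosome 11, and all 6 were above background in intestine alone or nowhere. The other group on that chromosome holds Ccl5, Ccl9, Ccl6, Ccl3 and Ccl4. There Ccl9 and Ccl6 were above background on every array, Ccl5 in crypt and intestine, and Ccl3 and Ccl4 in intestine alone. On chromosome 8, Cx3cl1 was above background on all arrays, while Ccl22, 31.4 kb away, was dim on all and Ccl17, 29.5 kb away, was seen in intestine alone. On chromosome 5, Ccl24 lay 10.3 kb from Ccl26, which was dim on every array, and Cxcl5 was the only gene above background among 5 neighbours with Cxcl3, Cxcl15, Cxcl1 and Cxcl2.

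**Figure D4:**
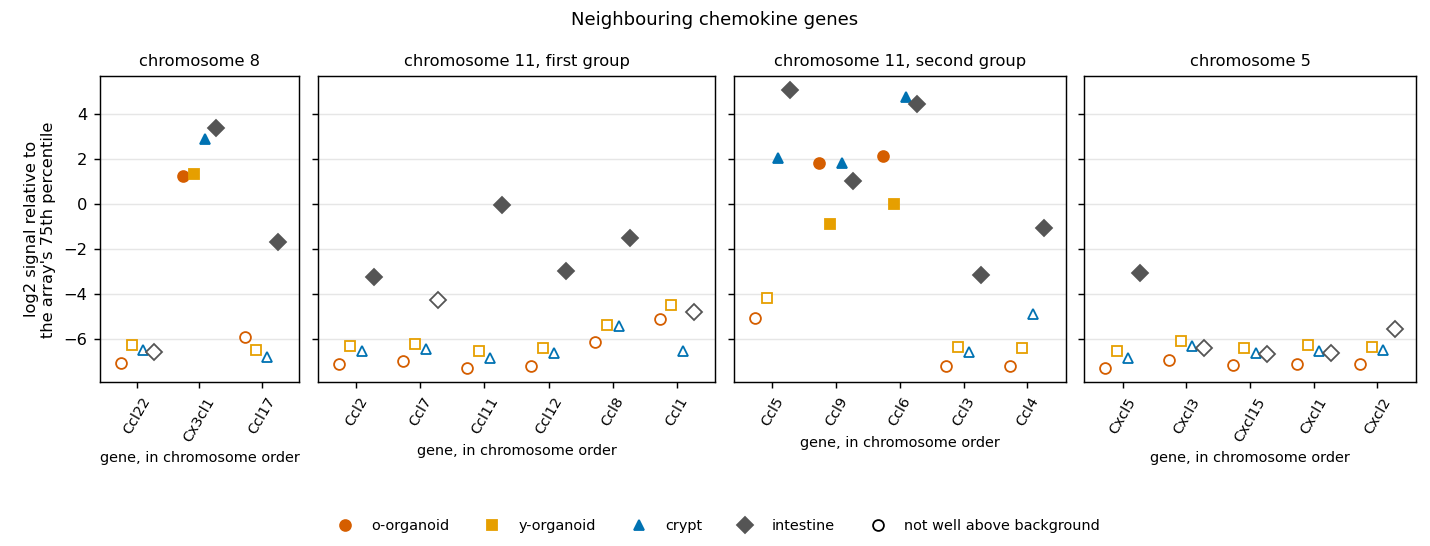
Log2 signal, relative to the array's 75th percentile, of chemokine genes in 4 groups of neighbours, in chromosome order and not to scale, on the o-organoid, y-organoid, crypt and intestine arrays; open points were not well above background. Ccl9, Ccl6 and Cx3cl1 have filled points for all 4 arrays, whereas the 6 genes of the first chromosome 11 group have none outside intestine.

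Few receptor genes were above background on the epithelial arrays. Of 23 chemokine receptor genes, 4 were above background on the o-organoid, 5 on the y-organoid, 5 on the crypt and 16 on the intestine array. The shares of all genes were 54.8% on the o-organoid, 54.3% on the y-organoid, 52.2% on the crypt and 58.8% on the intestine array. Ccr1, Ccr2, Ccr4, Cxcr1, Cxcr2 and Xcr1 were dim on all. In crypt against intestine 14 of 16 tested were at least 2-fold lower and 0 higher (median -2.25), against 14.4% lower over all genes, though those seen in intestine alone could only be lower. Cx3cr1 had 1.24 in intestine and was dim elsewhere, at -6.30 on the o-organoid, -5.98 on the y-organoid and -5.30 on the crypt array. Ccr9, the receptor of Ccl25, had -4.69 on the o-organoid, -5.10 on the y-organoid (dim), -3.80 on the crypt and -0.47 on the intestine array. Cxcr6 was above background on every array, with -3.71 on the o-organoid, -3.80 on the y-organoid, -3.58 on the crypt and -0.35 on the intestine array. Ccr8 was the only receptor above background on the organoid arrays alone, with -3.07 on the o-organoid and -3.12 on the y-organoid array, against dim values of -6.43 in crypt and -4.83 in intestine. Ccr8 was the only receptor at least 2-fold higher on an organoid array than in crypt (bounds of 1.46 for o-organoid and 1.42 for y-organoid). That is 1 of 6 receptors tested for each organoid, where 8.57% of all genes were higher for o-organoid and 18.5% for y-organoid. Dim in crypt, Ccr8 could only be higher, so its direction lends no support. Between the organoids, Cxcr3 (bound of -1.53) and Ackr4 (bound of -1.51), an atypical receptor that removes ligands, were lower on the o-organoid array. Both were dim there and could only be lower. They were 2 of 6 receptors tested, where 19.3% of all genes were lower.

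Some cytokines that induce chemokines were dim on every array, while several of their receptors were not. Il1a, Il6, Il17a, Il17f, Il17c and Ifng were dim on every array. They were 6 of the 22 genes in the list of cytokines and receptors, where 35.5% of all genes were dim on every array. Tnf, Lta, Ltb, Il1b, Il22 and Il18 were above background in intestine. Lta and Il1b were dim on the epithelial arrays. Tnf was also above background on the o-organoid array, and Il22 on the o-organoid and crypt arrays. Il22 was nearly level, at -4.48 on the o-organoid, -4.46 on the y-organoid (dim), -4.42 on the crypt and -4.4 on the intestine array. The crypt and intestine values of Il22 lay just above those arrays' lowest signals above background, as did Lta in intestine (-4.43). The calls for Il22 therefore do not separate the arrays. Of the 22 genes in this list 2 of 12 tested were higher and 4 lower in y-organoid than in crypt, against 18.5% and 13.5% of all genes. For o-organoid 1 of 13 was higher and 4 lower, against 8.57% and 13.5%. Il17re, a receptor chain for Il17c, had -1.15 on the o-organoid, 1.30 on the y-organoid, -2.66 on the crypt and -2.26 on the intestine array. Il22ra1, the receptor chain for interleukin 22, had -1.42 on the o-organoid, -3.53 on the y-organoid, -0.09 on the crypt and 0.08 on the intestine array. The epithelial cytokine gene Il18 had -1.16 on the o-organoid, -1.43 on the y-organoid, 3.44 on the crypt and 4.21 on the intestine array. Il18 was thus low on both organoid arrays, while Il17re was highest and Il22ra1 lowest on the y-organoid array. Ltb was above background in crypt and intestine alone (-4.98 for crypt minus intestine), and was lower on the organoid arrays by bounds of -1.55 for o-organoid and -1.02 for y-organoid. The second gene higher on the y-organoid array than in crypt was Tnfrsf1b (bound of 1.12).

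Genes of the NF-kappaB response were also set against crypt. Of 14 tested, 3 were higher and 4 lower in y-organoid, where 18.5% of all genes were higher and 13.5% lower, and 0 were higher and 4 lower in o-organoid, where the shares of all genes were 8.57% and 13.5%. Higher on the y-organoid array were Lcn2 (1.22), Tnfaip2 (bound of 1.16) and Nfkb1 (1.07), while Bcl3 fell by 1.51 there and by 1.94 on the o-organoid array. Nfkbia, the inhibitor whose gene NF-kappaB itself induces, differed by -0.63 for o-organoid minus crypt and -0.21 for y-organoid minus crypt.

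Among enzymes that cut chemokines, Adam10 lay within 2-fold in all 4 comparisons. Dpp4, which trims the ends of several ligands, had 0.78 on the o-organoid, 0.43 on the y-organoid, 2.59 on the crypt and 2.80 on the intestine array, a difference from crypt of -1.81 for o-organoid and -2.16 for y-organoid. Mmp7 had 2.78 on the o-organoid, -0.33 on the y-organoid, 3.80 on the crypt and 3.12 on the intestine array, and its y-organoid value was the lowest, as for Ccl6 and Ccl9. Pf4 and Xcl1, chemokines outside the naming rule, were above background in intestine alone (0.94 and -1.61), and Ppbp was dim on every array.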

How the data were processed

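Total RNA of wild type mice was labelled with Cy3, and the 4 samples were hybridised to 4 arrays of 1 slide, so a slide effect cannot be tested. The authors deposited scanner files with a processed intensity per spot, made per the file headers with Agilent Feature Extraction 10.7.3.1 by background subtraction and detrending. Coordinates are those of mm9, as the headers state. A value table, also deposited, was found to hold a ratio, each spot's processed intensity over 1 constant per array, linear, uncentred over genes and with a median of 1.0 on each array; no source used here names its tool.

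Control and outlier spots were left out, and no spot was saturated. Of 43020 other spots, 399 probes had 10 each. Signals were log2 intensities minus the array's 75th percentile, and spots of a probe were averaged. Chemokine genes kept the name in the files. Other probes were named through RefSeq (GRCm38.p6, names only): 27194 through their accession, 3570 through a symbol, 565 through a synonym, and 8054 under the name in the files. A gene entered a comparison if either array showed it above background, and a change was counted at 2-fold. The number of arrays, 1 per group, limits the precision, so no test was made.

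Alternatives were normexp (offset 50, limma 3.58.1 in R 4.3.3), quantile normalization, the deposited table, no filter on dim probes, outlier spots kept, the mean over a gene's probes and 4-fold. The procedure was tested on simulated data. The chemokine genes, the gene lists and the motifs were chosen with earlier results of these data known. Named were all chemokine genes. Of each other list, those named were the members with the 4 largest differences and those in a count of 5 or fewer. The receptors of ligands described were named too. Other list genes named (Nfkbia, Adam10, Tnf, Lta, Il1b, Il22) were chosen after their values were seen. Some list members are not reported here.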

Additional observations from a re-analysis of the deposited data

Results flagged for a closer look

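Cxcl11, read by its brightest probe, had scaled differences of opposite sign in the organoid samples relative to the same crypt array. They were -0.61 on the log2 scale for o-organoid minus crypt and 0.63 for y-organoid minus crypt. With 1 array per group the difference was not tested. Its second probe had the same signs, -0.91 for o-organoid minus crypt and 0.95 for y-organoid minus crypt. The 5 probes of other genes with a stretch of 20 bases in common with the brightest probe gave -0.73 to -0.59 for o-organoid minus crypt and 0.61 to 0.82 for y-organoid minus crypt. The size for y-organoid minus crypt depended on the scaling: it was 0.11 with quantile normalization and 0.11 with the deposited table, where o-organoid minus crypt gave -0.75 and -0.49. Before scaling, the brightest probe had intensities of 149797 on the o-organoid, 154414 on the y-organoid and 167492 on the crypt array. Both organoid intensities thus lay below crypt. The 75th percentiles of those arrays were 644.0, 281.9 and 472.3. The second probe had intensities of 761, 1214 and 1051, which kept the opposite signs.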

How the results depend on the processing

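Of 58 differences of chemokine genes, 35 were at least 2-fold, and 24 of these stayed past 2-fold in the same direction under every alternative that gave a value. For crypt minus intestine, the count higher was 0 with normexp, 4 with the deposited table, 2 with no filter and 0 at 4-fold, the count lower 11 with the deposited table and 11 at 4-fold, and the median -0.93 with normexp, -1.12 with quantile normalization and -0.86 with the deposited table. For y-organoid minus crypt, the count higher was 2 with no filter, and the median -1.27 with quantile normalization, -1.60 with the deposited table, -0.56 with the mean over probes and 0.22 with no filter, where all 34 genes entered, dim ones included. For o-organoid minus crypt, the counts were 1 higher and 10 lower with no filter and 3 lower at 4-fold, and the median was -0.68 with normexp, -0.80 with the deposited table, -0.59 with no filter and -0.52 with the mean over probes. For o-organoid minus y-organoid, the count higher was 4 with the deposited table, the count lower 1 with quantile normalization, 1 with the deposited table and 0 at 4-fold, and the median 0.23 with quantile normalization, 0.64 with the deposited table, -0.77 with no filter and -0.05 with the mean over probes. Leaving out Cxcl11, an alternative chosen after seeing the data, gave medians of -1.40 for y-organoid and -1.23 for o-organoid minus crypt and 1 gene lower in o-organoid than y-organoid. Ccl25 in y-organoid minus crypt was 0.51 with the mean over probes, which takes in 3 dimmer probes. Calls were also lost for Ccl19 in crypt minus intestine (-0.71 with normexp) and for Cxcl11 between organoids (-0.60 with the deposited table). Deposited scaling turned the sign of Ccl27a (0.30), Cx3cl1 (0.27) and Cxcl11 (0.65) in crypt minus intestine, and moved the median of all genes by 0.75, -0.52, 0.09 and 0.60 in the 4 comparisons in the order given. No paired analysis was possible because the labels give no replicate numbers and each group has 1 array. Dim signals limit 13 genes to a bound in crypt minus intestine.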
